A study of Homo sapiens with 12 samples.

Results

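Kruppel-like factors (KLFs) are zinc-finger transcription factors, and 10 of their genes were examined here over a time course of low oxygen: KLF3, KLF4, KLF5, KLF6, KLF7, KLF9, KLF10, KLF11, KLF13 and KLF16. They were taken by name from a transcript table of HCT116, an established human colorectal carcinoma cell line. All transcripts of these names that matched a reference transcript (class code =) or shared a splice junction with one (class code j) were summed per gene, which gave 67 transcripts for 10 genes, of 286562 such transcripts under 56537 gene names. All 10 genes had a summed level above 0.5 FPKM (fragments per kilobase of transcript, scaled to the mapped fragments of the library) in at least 3 libraries, as did 16680 gene names in the whole table. Cells were kept in 1% O2 for 1, 2 or 24 h from 24 h after plating, and the 0 h cells had 21% O2; each time point had 3 libraries of poly(A) RNA, which the submitters call biological replicates. The cells were otherwise untreated, and all libraries come from 1 cell line, so values describe that line only. Cells kept longer in 1% O2 were also longer in culture, and the effects of these cannot be told apart; how long after plating the 0 h cells were harvested was not stated.

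KLF proteins share a C-terminal DNA-binding domain of zinc fingers that reads GC-rich boxes and CACCC boxes, and they differ in the N-terminal part, which recruits other proteins. KLF3 recruits the corepressor CtBP. KLF4, KLF5, KLF6 and KLF7 belong to a branch with activating domains, in which KLF4 marks the differentiated, non-dividing cells of the gut lining and KLF5 the dividing cells of the crypts. KLF9, KLF10, KLF11, KLF13 and KLF16 bind the SIN3A corepressor, and KLF10 and KLF11 were named for their early induction by TGF-beta.

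The bases before the start site are shown for KLF4 and KLF9, which changed most at 24 h, and for KLF6, as another called gene. KLF7, a called gene with several windows, changed more than KLF6 and is not shown. Windows of 4 of the 8 genes that had one (KLF4, KLF6, KLF7 and KLF11) hold a copy of CACGTG, and KLF11 was not called. The share of all windows that hold CACGTG was not computed. This palindrome contains ACGTG on both strands, 1 of the 2 cores (with GCGTG) of the hypoxia response element that hypoxia-inducible factors bind. The sequences are RefSeq promoter windows on GRCh38.p14, cut to the 250 bases before the start, written 5′ to 3′ on the strand of the gene, with ACGTG and its reverse complement CACGT in capitals. They lie at chr9:107489770-107490019 for KLF4, chr10:3785210-3785459 for KLF6 and chr9:70414658-70414907 for KLF9, all on the minus strand.
KLF4: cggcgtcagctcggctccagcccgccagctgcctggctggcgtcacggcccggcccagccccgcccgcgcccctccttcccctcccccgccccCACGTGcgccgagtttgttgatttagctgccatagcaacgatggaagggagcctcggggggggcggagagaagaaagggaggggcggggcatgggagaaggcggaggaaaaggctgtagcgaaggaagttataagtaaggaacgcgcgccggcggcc
KLF6: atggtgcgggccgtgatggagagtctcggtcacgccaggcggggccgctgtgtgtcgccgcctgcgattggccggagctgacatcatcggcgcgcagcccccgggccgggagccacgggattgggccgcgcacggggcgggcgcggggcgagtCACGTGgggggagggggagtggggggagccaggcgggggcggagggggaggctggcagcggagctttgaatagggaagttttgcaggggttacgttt
KLF9: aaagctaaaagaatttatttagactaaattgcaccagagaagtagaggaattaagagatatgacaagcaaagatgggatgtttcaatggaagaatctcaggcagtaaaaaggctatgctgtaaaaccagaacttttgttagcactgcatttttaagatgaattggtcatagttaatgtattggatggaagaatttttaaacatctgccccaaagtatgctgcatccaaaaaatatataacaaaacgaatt
In KLF4 the 2 matches start at -157 and -156 and in KLF6 at -97 and -96, each pair being 1 CACGTG read on both strands. The KLF9 window had no match to ACGTG on either strand, and none to GCGTG or CACCC, which says only that these letters are not in this window.

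Of the 10 genes, 8 had a promoter window in the RefSeq table (13 windows, since some genes have several starts), and KLF3 and KLF10 were not among them. ACGTG was found, on either strand, before the start in 4 of the 8 genes (KLF4, KLF6, KLF7 and KLF11), against 18.5% of all 35116 windows of this length. GCGTG was found in 5 of the 8, against 32.2% of all windows, and CACCC in 4 of the 8, against 54.7%. Genes with several windows had more chances of a match.

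Before any gene is described, the libraries were compared. Pearson's r of log2 values was 0.965 to 0.988 within time points (12 pairs) and 0.905 to 0.988 between them (54 pairs). Between 57.0% and 87.6% of all FPKM in a library lay in transcript models shorter than 300 bases. Median-of-ratios factors between libraries were 0.950 to 1.03, so values were used as deposited. When values were instead rescaled to TPM, which divides each value by the FPKM sum of its library, the median gene moved by -0.53, -0.88 and -0.67 on the log2 scale at 1, 2 and 24 h, and by 0.12 from 2 to 24 h. Single values under TPM include this shift, and the same value relative to the median gene is given beside them. With TPM over models of at least 300 bases, the median gene moved by -0.01, -0.02, -0.12 and -0.08 in the same order. All 5 epithelial markers were present in every library (summed FPKM 1599 to 2318). Of 3 endothelial markers none passed 0.5 FPKM; of 5 fibroblast and 4 leukocyte markers only COL1A1 and CD68 did. The summed fibroblast markers were 1.82 to 2.16 FPKM at 0 h and 5.77 to 8.83 at 24 h, and the summed leukocyte markers 1.78 to 2.31 and 6.88 to 14.2. Their part in the results below was not tested; the leukocyte marker PTPRC and the fibroblast marker LUM did not pass 0.5 FPKM. Of 12 hypoxia reference genes 11 could be tested, and all 11 were called higher at 24 h, led by DDIT4 with a log2 fold change of 5.68; with TPM 9 were called.

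After 24 h in 1% O2, most KLF genes were higher than at 0 h. A gene was called when the Benjamini-Hochberg adjusted p, over all 16680 genes in limma, was under 0.01 and the log2 fold change exceeded 1, that is a 2-fold change; the words rose and fell are used for an adjusted p under 0.05. By the stricter rule 5 of the 10 genes were called higher (KLF3, KLF4, KLF6, KLF7 and KLF9), while 8.76% of all genes were. Adjusted p alone was under 0.05 for 8 of the 10, adding KLF5, KLF11 and KLF13, against 25.0% of all genes in this direction. In 9 of the 10 (all but KLF16) the 3 libraries of 24 h were each above the 3 of 0 h, as for 27.6% of all genes. The median log2 fold change was 0.97 over the 10 genes and -0.05 over all genes. Under TPM the calls fell to 2, KLF4 and KLF9. At an adjusted p under 0.05 KLF4 and KLF9 were then higher and KLF16 lower. KLF3, KLF5, KLF6, KLF7, KLF11 and KLF13 no longer passed (limma, adjusted p = 0.084 to 0.94). KLF5, KLF10, KLF11 and KLF16 had values below 0, but 9 of the 10 still lay above the median of all genes. With TPM over models of at least 300 bases, 4 were called, without KLF6. At an adjusted p under 0.05, 8 were then higher in limma and 1, KLF16, was lower.

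**Figure D1:**
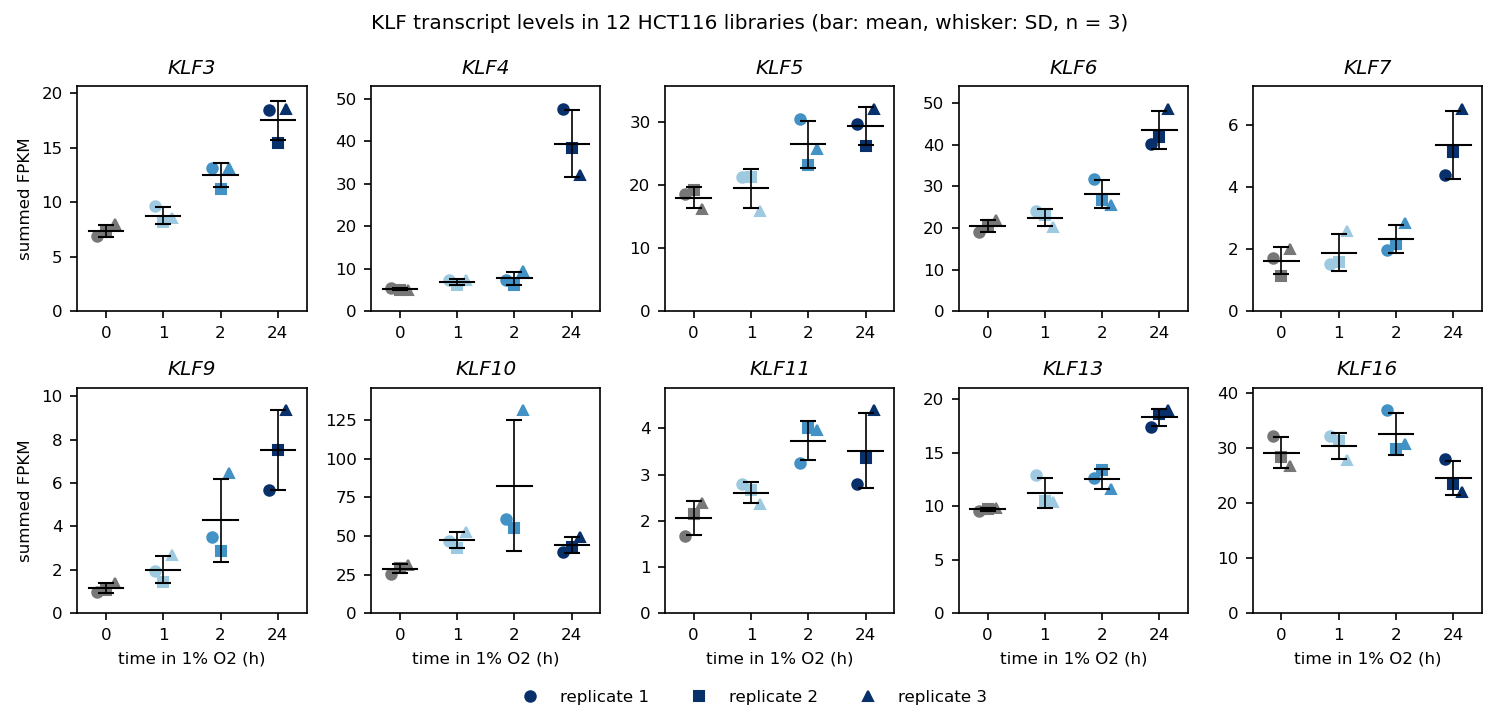
Summed FPKM of each of the 10 KLF genes (vertical axis, linear, its own range in each panel) against time in 1% O2 (horizontal axis, 0, 1, 2 and 24 h). Each symbol is 1 library with its shape giving the replicate number, the bar is the mean and the whisker the SD of 3 libraries; KLF4 is at 5.01 to 5.54 FPKM at 0 h and at 32.1 to 47.7 at 24 h, while KLF10 is highest at 2 h, where 1 library reaches 131. With TPM the KLF4 change is still called, and the KLF10 change at 2 h is 0.32 on the log2 scale, or 1.20 relative to the median gene, and does not pass.

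In the branch with activating domains, KLF4 changed most. Its main transcript, ENST00000374672, lies at chr9:110247133-110252050 (minus strand, GRCh37). Summed KLF4 levels were 5.54, 5.01 and 5.05 FPKM at 0 h, 7.46, 6.09 and 7.30 at 1 h, 7.44, 6.28 and 9.40 at 2 h, and 47.7, 38.4 and 32.1 at 24 h. The 3 libraries of 24 h stood far above the 9 others, which lay between 5.01 and 9.40. The mean rose from 5.20 ± 0.297 FPKM (SD, n = 3) to 39.4 ± 7.86 (SD, n = 3), a ratio of 7.57. In limma the log2 fold change was 2.79 (SE 0.17, adjusted p = 2.42e-07), rank 72 among 16680 genes from the largest increase. It was called under all 16 alternative settings, TPM included (1.86, or 2.54 relative to the median gene). Most of this change fell between 2 and 24 h, with a log2 fold change of 2.28 (limma, adjusted p = 1.16e-06). At 1 and 2 h the KLF4 libraries were all above those of 0 h, but the adjusted p in limma was 0.996 at 1 h and 0.201 at 2 h.

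KLF5, the crypt factor, had a flatter course. Its transcript ENST00000377687 lies at chr13:73633143-73651676 (plus strand, GRCh37). Levels were 18.5, 19.2 and 16.1 FPKM at 0 h, 21.2, 21.2 and 15.9 at 1 h, 30.4, 23.1 and 25.7 at 2 h, and 29.7, 26.2 and 32.1 at 24 h. The libraries of 2 h and 24 h overlapped, and both lay above those of 0 h. KLF5 rose at 24 h by a log2 fold change of 0.69 (limma, SE 0.14, adjusted p = 0.00132), under the 2-fold limit, and between 2 and 24 h the change was 0.15 (limma, 95% interval -0.16 to 0.46, adjusted p = 0.393). Under TPM the 24 h value was -0.16, or 0.52 relative to the median gene (limma, adjusted p = 0.78).

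KLF6, a broadly expressed factor described as a tumour suppressor, was among the most abundant of the family. Its transcript ENST00000497571 lies at chr10:3818188-3827401 (minus strand, GRCh37). Levels were 19.0, 20.6 and 21.9 FPKM at 0 h, 24.2, 23.1 and 20.1 at 1 h, 31.8, 26.8 and 25.5 at 2 h, and 40.1, 41.7 and 48.6 at 24 h. No library of 2 h overlapped those of 0 h or 24 h. KLF6 rose at 24 h by 1.06 on the log2 scale (limma, SE 0.12, adjusted p = 1.38e-05). This lies just past the 2-fold limit, and the call was lost in 3 of 16 alternatives: without the third 24 h library (0.98), with TPM over models of at least 300 bases (0.98) and with TPM (0.20, or 0.88 relative to the median gene).

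KLF7, best known from the nervous system, was a low member. Its leading transcript ENST00000421199 lies at chr2:207943814-208031970 (minus strand, GRCh37), and the models of a microRNA gene, MIR2355, and of KLF7-IT1 fall within its span. Levels were 1.72, 1.14 and 1.99 FPKM at 0 h, 1.504, 1.573 and 2.58 at 1 h, 1.97, 2.15 and 2.82 at 2 h, and 4.39, 5.13 and 6.52 at 24 h. The first 3 time points overlapped one another and all lay below 24 h. KLF7 rose at 24 h by 1.47 on the log2 scale against 0 h (limma, SE 0.22, adjusted p = 0.000154) and by 1.05 against 2 h (limma, adjusted p = 0.00197). The call against 2 h was lost without the first 2 h library (0.96) and without the third 24 h library (0.91). Against 0 h the TPM value was 0.61, or 1.29 relative to the median gene (limma, adjusted p = 0.084).

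KLF3, the CtBP-recruiting repressor, was higher at each later time point with no overlap between neighbours. Its transcript ENST00000261438 lies at chr4:38665820-38703138 (plus strand, GRCh37). Levels were 6.89, 7.23 and 8.01 FPKM at 0 h, 9.63, 8.18 and 8.55 at 1 h, 13.2, 11.2 and 13.2 at 2 h, and 18.5, 15.5 and 18.6 at 24 h. At 2 h KLF3 rose by 0.72 on the log2 scale (limma, SE 0.12, adjusted p = 0.0322). The adjusted p of that 2 h change ranged from 0.012 to 0.50 over 16 alternatives and missed 0.05 in 10 of them, among them leaving out the first 2 h library, the third 2 h library or any single 0 h library (0.081 to 0.18); under TPM its value was -0.29, or 0.60 relative to the median gene. At 24 h KLF3 rose by 1.19 on the log2 scale (limma, SE 0.12, adjusted p = 6.35e-06), and under TPM that value was 0.34, or 1.02 relative to the median gene (limma, adjusted p = 0.5).

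Among the SIN3A-binding members, KLF9 changed most at 24 h. KLF9 is induced by glucocorticoid and thyroid hormones in many tissues. Its single transcript, ENST00000377126, lies at chr9:72999520-73029573 (minus strand, GRCh37). Levels were 0.968, 1.06 and 1.40 FPKM at 0 h, 1.92, 1.42 and 2.69 at 1 h, 3.52, 2.86 and 6.47 at 2 h, and 5.69, 7.53 and 9.35 at 24 h. The libraries of 1 h lay above those of 0 h and those of 2 h above those of 1 h, and 2 h overlapped 24 h through 1 library. KLF9 rose at 24 h with a ratio of means of 6.58 and a log2 fold change of 2.27 (limma, SE 0.28, adjusted p = 2.89e-05), rank 136 among all genes, and was called under all 16 alternatives. At 2 h the log2 fold change was already 1.48 (limma, SE 0.28), with an adjusted p of 0.0502 that misses the threshold; with the replicate block it was 0.011 and passed. Over the alternatives it ranged from 0.011 to 0.23, and without the second 2 h library it was 0.04. Under TPM the value was 0.46 at 2 h, or 1.35 relative to the median gene (limma, adjusted p = 0.17), and 1.27 at 24 h, or 1.95 relative to it (limma, adjusted p = 0.00061).

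KLF10, the TGF-beta inducible early gene, was the only member whose mean was highest at 2 h by a wide margin. Its transcript ENST00000285407 lies at chr8:103661012-103667953 (minus strand, GRCh37). Levels were 25.5, 29.1 and 31.3 FPKM at 0 h, 47.0, 42.2 and 52.4 at 1 h, 61.2, 55.1 and 131 at 2 h, and 39.6, 42.6 and 49.5 at 24 h. Every library of 1 h was above every library of 0 h, every library of 2 h was above every library of 1 h, and 24 h lay back within the range of 1 h or below it. At 1 h the log2 fold change was 0.71 (limma, SE 0.25, adjusted p = 0.996). KLF10 rose at 2 h by 1.40 on the log2 scale (limma, SE 0.25, adjusted p = 0.0417), a ratio of means of 2.88; under TPM it was 0.32, or 1.20 relative to the median gene (limma, adjusted p = 0.5). Between 2 and 24 h it fell by 0.80 on the log2 scale (limma, SE 0.25, adjusted p = 0.0195). At 24 h its log2 fold change against 0 h was 0.61 (limma, adjusted p = 0.0578); the adjusted p ranged from 0.0049 to 0.66 over the alternatives and was under 0.05 in 3 of 16, and under TPM the value was -0.25, or 0.43 relative to the median gene.

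The third 2 h library set much of the KLF10 peak. Leaving it out gave a log2 fold change of 1.01 at 2 h, still under an adjusted p of 0.05 in limma, and of -0.40 between 2 and 24 h. Over all 16 alternatives the adjusted p of the 2 h change in limma ranged from 0.013 to 0.50 and missed 0.05 in 9, including the removal of the first 2 h library (0.081) or of any single 0 h library (0.10 to 0.20). In that library KLF10 was 2.26 times, and KLF9 2.03 times, the mean of the other two 2 h libraries, while the median ratio over 14122 genes with a 2 h mean of at least 1 FPKM was 0.970. A higher ratio than that of KLF10 was found for 0.942% of these genes. The share of FPKM in models under 300 bases was 85.9% in that library and 85.2% and 74.5% in the others; its part in the KLF10 value was not tested.

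KLF11, the other TGF-beta inducible member, was at low levels throughout. Its leading transcript ENST00000305883 lies at chr2:10183677-10194963 (plus strand, GRCh37). Levels were 1.67, 2.14 and 2.39 FPKM at 0 h, 2.79, 2.67 and 2.36 at 1 h, 3.25, 4.0 and 3.96 at 2 h, and 2.80, 3.37 and 4.39 at 24 h. The libraries of 2 h and 24 h overlapped and were all above those of 0 h. KLF11 rose at 24 h by 0.64 on the log2 scale (limma, SE 0.17, adjusted p = 0.00755); at 2 h the log2 fold change was 0.73 (limma, adjusted p = 0.104, and 0.048 with the replicate block). With TPM the 24 h value was -0.08, or 0.60 relative to the median gene (limma, adjusted p = 0.86).

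KLF13, studied mainly in lymphocytes and heart, had the tightest replicates of the 10 genes at 0 h. Its leading transcript ENST00000307145 lies at chr15:31619038-31670102 (plus strand, GRCh37). Levels were 9.54, 9.71 and 9.86 FPKM at 0 h, 12.9, 10.5 and 10.3 at 1 h, 12.6, 13.4 and 11.6 at 2 h, and 17.4, 18.6 and 18.9 at 24 h. The libraries of 1 and 2 h overlapped and lay between those of 0 and 24 h. KLF13 rose at 24 h by 0.88 on the log2 scale (limma, SE 0.11, adjusted p = 2.90e-05), under the 2-fold limit. Under TPM the value was 0.04, or 0.72 relative to the median gene (limma, adjusted p = 0.94).

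KLF16 was the only member with a lower mean at 24 h than at 0 h. Its transcript ENST00000592313 lies at chr19:1854317-1862857 (minus strand, GRCh37). Levels were 32.3, 28.4 and 26.8 FPKM at 0 h, 32.1, 31.3 and 27.8 at 1 h, 36.9, 29.8 and 30.8 at 2 h, and 28.0, 23.5 and 22.0 at 24 h. The libraries of 24 h overlapped those of 0 h but not those of 2 h. The log2 fold change at 24 h was -0.25 (limma, 95% interval -0.52 to 0.02, adjusted p = 0.101). It passed 0.05 in 4 of 16 alternatives, among them TPM (-1.07, or -0.39 relative to the median gene, limma, adjusted p = 0.036) and the removal of the first 24 h library (-0.35, limma, adjusted p = 0.032), out of a range of 0.012 to 0.31. From 2 to 24 h KLF16 fell by 0.40 on the log2 scale (limma, SE 0.12, adjusted p = 0.0157), which missed 0.05 without the first 2 h library (0.074) or the third 24 h library (0.053), and under TPM, where the value was -0.17, or -0.29 relative to the median gene (adjusted p = 0.87).

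**Figure D2:**
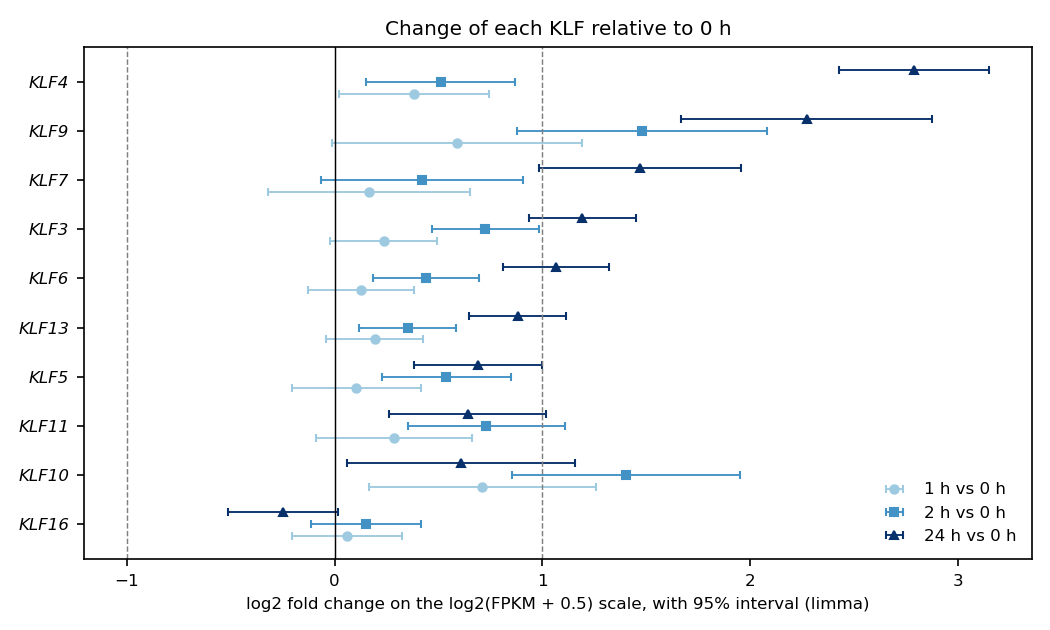
Log2 fold change of each KLF gene against 0 h on the log2(FPKM + 0.5) scale (horizontal axis) at 1, 2 and 24 h, with the 95% interval of the limma fit. The dashed lines mark a 2-fold change; at 24 h the values run from -0.25 for KLF16 to 2.79 for KLF4, and under TPM 8 of the 10 values turn below 0 at 1 h and at 2 h, and KLF5, KLF10 and KLF11 at 24 h.

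At the early time points all 10 KLF genes had values above 0 as deposited. No KLF was called at 1 h or 2 h by the stricter rule in limma, which called 1 gene higher at 1 h (0.00600%) and 3 at 2 h (0.0180%). At an unadjusted p under 0.05 there were 2 of the 10 at 1 h, against 769 of 16680 genes, and 8 of the 10 at 2 h, against 2547. By an adjusted p under 0.05 none passed at 1 h, where 0.00600% of all genes did, and 2 (KLF3 and KLF10) passed at 2 h, where 0.216% did. With the replicate number as a block, 4 passed at 2 h in limma (KLF3, KLF9, KLF10 and KLF11, adjusted p = 0.012, 0.011, 0.013 and 0.048), against 0.881% of all genes. The block treats libraries of the same number as paired, which the labels do not state. The libraries lay entirely above those of 0 h for 5 of the 10 genes at 1 h (KLF3, KLF4, KLF9, KLF10 and KLF13), against 6.36% of all genes, and for 8 at 2 h (all but KLF7 and KLF16), against 12.2%. The median log2 fold change of the 10 was 0.21 at 1 h and 0.52 at 2 h, and of all genes -0.01 and -0.02. Under TPM only KLF9 and KLF10 had values above 0 at 1 and 2 h, and 9 of the 10 lay above the median of all genes at both times. With TPM over models of at least 300 bases all 10 were above 0 at both times, but none passed an adjusted p of 0.05 in limma. The comparisons at 1, 2 and 24 h share the same 0 h libraries.

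Between 2 and 24 h the members parted. KLF4 and KLF7 were called higher, against 7.44% of all genes. By adjusted p under 0.05 in limma 6 rose (KLF3, KLF4, KLF6, KLF7, KLF9 and KLF13), against 23.2% of all genes, and 2 fell (KLF10 and KLF16), against 27.4% in that direction. Under TPM only KLF4 and KLF7 passed this threshold. The adjusted p in limma of the other 6 was then 0.091 to 0.87, with no change of sign. With TPM over models of at least 300 bases 5 rose and 2 fell. The 24 h libraries were all above the 2 h libraries for 5 of the 10 (KLF3, KLF4, KLF6, KLF7 and KLF13), against 25.3% of all genes. KLF5 and KLF11 had values of 0.15 and -0.09, whose 95% intervals in limma were -0.16 to 0.46 and -0.47 to 0.29. The members' median was 0.50 and that of all genes -0.03.

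The makeup of the KLF pool changed with these courses. FPKM is per length, so levels can be set side by side between genes. The 10 genes summed to 123 ± 1.58 FPKM at 0 h and 153 ± 6.75 after 1 h, and then to 213 ± 43.97 after 2 h and 233 ± 9.85 after 24 h (SD, n = 3). On the TPM scale the sums were 68.3 ± 11.6, 56.4 ± 19.7, 54.6 ± 11.1 and 74.1 ± 32.0 (SD, n = 3) in the same order, with overlapping libraries, while shares within the sum do not depend on the scaling. At 0 h the order was KLF16, KLF10, KLF6, KLF5, KLF13, KLF3, KLF4, KLF11, KLF7 and KLF9. Neighbours whose libraries overlapped there were KLF16 and KLF10, KLF6 and KLF5, KLF11 and KLF7, and KLF7 and KLF9. At 24 h the order was KLF10, KLF6, KLF4, KLF5, KLF16, KLF13, KLF3, KLF9, KLF7 and KLF11, and neighbours that overlapped were KLF10 and KLF6, KLF6 and KLF4, KLF5 and KLF16, KLF13 and KLF3, and KLF9 and KLF7, so the order within these pairs is not resolved at either time. KLF4 made up 4.05% to 4.56% of the sum at 0 h and 13.2% to 20.4% at 24 h. KLF10 held 23.2% on average at 0 h, 37.4% at 2 h and 18.9% at 24 h, and KLF16 held 23.7% at 0 h and 10.5% at 24 h, although its own level did not pass the test at 24 h.

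**Figure D3:**
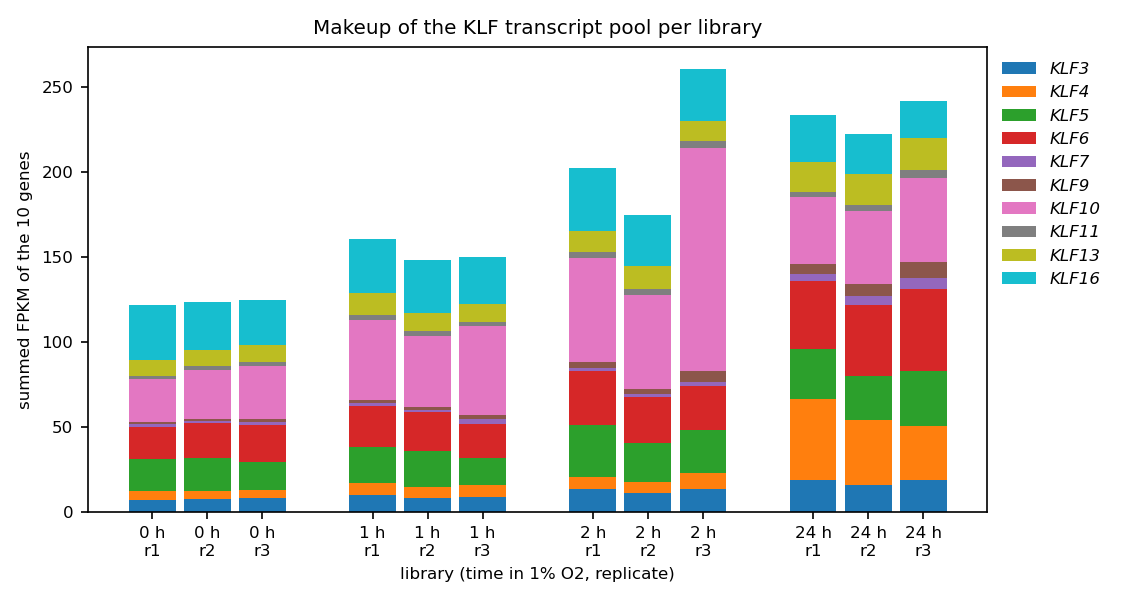
Summed FPKM of the 10 KLF genes (vertical axis) in each of the 12 libraries (horizontal axis, time and replicate), stacked by gene. The total goes from 122 to 125 FPKM at 0 h to 223 to 242 at 24 h; on the TPM scale the totals overlap between times; the KLF4 segment widens at 24 h and the KLF10 segment is largest in the third 2 h library.

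Whether the family switched isoforms was asked within each gene, as the share of the gene's FPKM carried by each transcript. Of the 67 transcripts 27 passed 0.5 FPKM in at least 3 libraries, and 18 carried at least 10% of their gene over the 12 libraries. KLF9 had 1 transcript, and KLF4, KLF6 and KLF10 had a dominant one with 95.2%, 89.4% and 98.2% of the gene. KLF16 was divided about evenly between ENST00000592313 (51.1%) and ENST00000250916 (48.9%), and KLF7 was spread over 4 transcripts of 10.1% to 30.5%. None of 26 transcripts in 9 genes changed its usage between 0 and 24 h at an adjusted p under 0.05 in limma (3 at an unadjusted p under 0.05), against 10.9% of 57084 transcripts in the table.

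The nearest to that threshold was a retained-intron transcript of KLF4, ENST00000497048 (limma, adjusted p = 0.051), which is named after its values were seen. It was listed at 0 in 2 of the 3 libraries at 0 h and at 0.163 FPKM in the third, and at 0.267, 0.362 and 1.37 FPKM at 24 h. Its usage value, computed with the pseudocount of 0.5, had a log2 fold change of -1.82 although its own FPKM was higher at 24 h. The pseudocount exceeds most of its values, so this value mainly follows KLF4 as a whole, which was 7.57 times higher. It does not show that the share of this transcript fell. The plain share was 0 in 2 of the 3 libraries at 0 h and above 0 in all 3 at 24 h.

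Of the 17 leading transcripts in genes with several, 4 had shares that did not overlap between 0 and 24 h, and 24.0% of 31421 transcripts in the table did so. The 4 were those of KLF3, KLF4, KLF7 and KLF10. The KLF3 transcript ENST00000261438 carried 89.8%, 90.6% and 84.6% of its gene at 0 h and 77.5%, 80.1% and 73.9% at 24 h. The KLF7 transcript ENST00000309446 carried 11.9%, 12.1% and 22.5% at 0 h and 32.8%, 25.2% and 27.1% at 24 h. It had only 0.205, 0.139 and 0.447 FPKM at 0 h, all under 0.5. Its usage value, which includes the pseudocount, had a log2 fold change of -0.07 (limma, adjusted p = 0.89), so the larger share is not resolved. The main transcripts of KLF4 and KLF10 went from 92.2% ± 2.86 to 96.7% ± 1.84 and from 96.9% ± 0.498 to 98.6% ± 0.327 (SD, n = 3). Each gave p = 0.1 in a two-sided exact permutation test, the smallest that 3 against 3 libraries allow.

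KLF11 had the least stable division. Its transcript ENST00000540845 carried 10.9%, 31.7% and 14.6% of the gene at 0 h and 83.6%, 41.4% and 25.0% at 24 h. The 2 time points overlapped (two-sided exact permutation p = 0.2), and the difference of 30.9 percentage points was about as large as the SD within 24 h, 30.2 points.

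**Figure D4:**
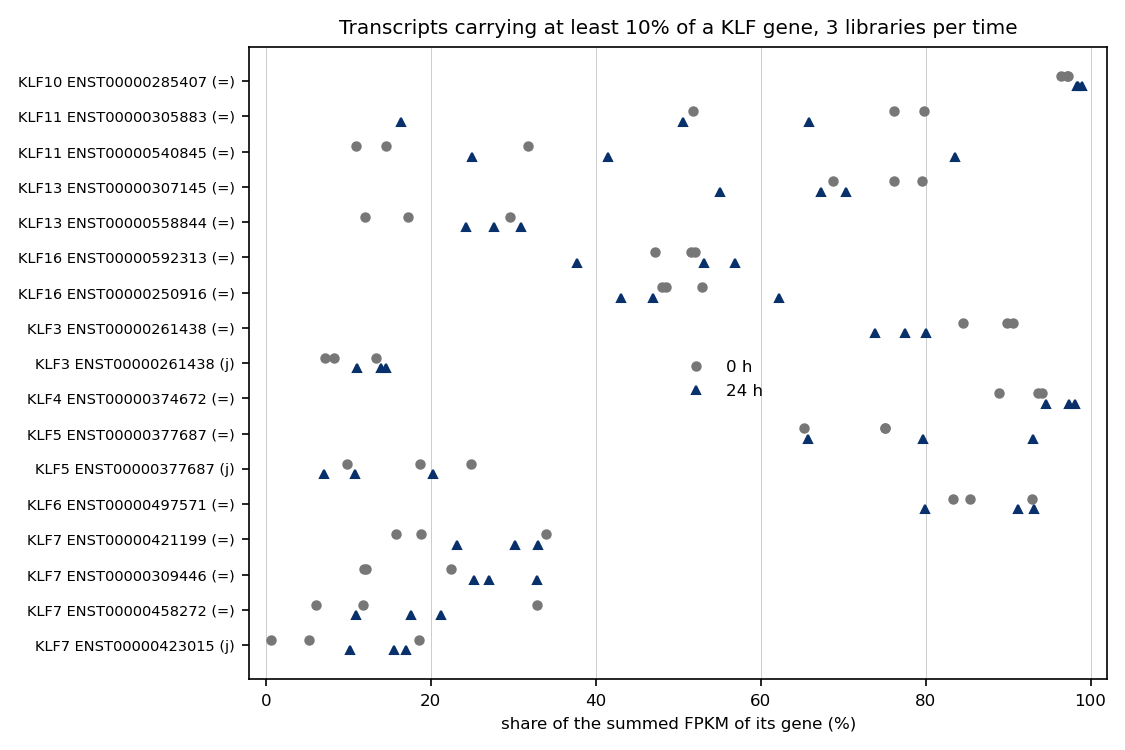
Share of its gene's summed FPKM (horizontal axis, percent) for the 17 transcripts that carry at least 10% of a KLF gene with several transcripts, at 0 h (circles) and 24 h (triangles), 3 libraries each; the letter in brackets is the class code. Shares of the main KLF4 and KLF10 transcripts stay above 88% in all 6 libraries, and those of the KLF11 transcripts spread widely within each time point.

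The remaining KLF genes and the related SP factors gave no call at 24 h with values as deposited. Of 8 other KLF genes 3 could be tested (KLF2, KLF12 and KLF15). KLF2, a factor of quiescent endothelium and lymphocytes, had 15.6 ± 1.83 FPKM at 0 h, 7.92 ± 1.98 after 2 h and 10.9 ± 1.11 after 24 h (SD, n = 3). It fell by 0.96 on the log2 scale at 2 h (limma, adjusted p = 0.034) and by 0.50 at 24 h (limma, adjusted p = 0.019), the opposite direction to KLF4 and KLF5 of the same branch. KLF12, like KLF3 a CtBP-binding repressor, had 0.848 FPKM at 0 h and rose at 24 h by 0.70 (limma, adjusted p = 0.0096). Of 9 SP genes 6 could be tested, and 1 rose and 1 fell at an adjusted p under 0.05 at 24 h, against 25.0% and 30.3% of all genes. SP3, the most abundant, rose by 0.26 (limma, adjusted p = 0.033), and SP1 had a log2 fold change of 0.33 (limma, adjusted p = 0.083). SP5, named after its values were seen, fell by 0.60 on the log2 scale (limma, adjusted p = 0.038). With TPM none rose and 1 fell in either list at 24 h. KLF2 was then called lower at 2 h (-1.83, or -0.95 relative to the median gene) and 24 h (-1.26, or -0.58). With TPM over models of at least 300 bases, none of the other KLF genes passed an adjusted p of 0.05 at 2 h. As deposited, 2 of the other KLF genes and 3 SP genes had an unadjusted p under 0.05 at 24 h in limma. Of all 16680 genes 10001 did.

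Partners of KLF proteins had values in both directions at 24 h, none with an absolute log2 fold change above 1. All 15 listed cofactors and ligases were tested and none was called in limma. At an unadjusted p under 0.05 there were 8 at 24 h, against 10001 of 16680 genes. At an adjusted p under 0.05 6 rose and 2 fell at 24 h in limma. The counts were 6 and 1 after median-of-ratios scaling, 0 and 4 with TPM, and 4 and 3 with TPM restricted to models of at least 300 bases. Of all genes 25.0% rose and 30.3% fell at this threshold. The 6 that rose, named with SIN3B after their values were seen, were SAP30, KAT2B, FHL3, HDAC3, EP300 and WWP1, with log2 fold changes of 0.34 to 0.88. KAT2B was low, with 1.27 ± 0.308 FPKM at 0 h and 2.58 ± 0.506 at 24 h (SD, n = 3). The pseudocount lowers its log2 fold change, which was 0.80. SAP30, a subunit of the SIN3 complex, had 16.8 ± 2.28 FPKM at 0 h and 31.4 ± 4.28 at 24 h (SD, n = 3; limma, adjusted p = 0.0003). SIN3B fell by 0.32 on the log2 scale (limma, adjusted p = 0.039). The histone deacetylase HDAC1 had 134 ± 16.1 FPKM at 0 h and 140 ± 3.15 at 24 h (SD, n = 3), a log2 fold change of 0.06 (limma, adjusted p = 0.73). HDAC2 fell by 0.41 on the log2 scale (limma, adjusted p = 0.001), from 144 ± 4.74 to 108 ± 8.75 FPKM (SD, n = 3).

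Textbook targets of KLF proteins changed in both directions. Of 13 tested, 5 were called higher and 2 lower at 24 h, with a median log2 fold change of 0.85 against -0.05 for all genes, of which 8.76% were called higher and 9.51% lower; the split was 6 and 1 after median-of-ratios scaling, 1 and 3 with TPM, and 3 and 2 with TPM restricted to models of at least 300 bases. PDGFA, a growth factor gene bound by KLF5, went from 11.96 ± 1.86 to 115 ± 29.0 FPKM (SD, n = 3), a log2 fold change of 3.19 (limma, adjusted p = 1.7e-07). CDH1, the E-cadherin gene and a target of KLF4, rose by 1.76 (limma, adjusted p = 8.5e-07), from 7.42 ± 0.731 to 26.3 ± 1.72 FPKM (SD, n = 3). ODC1, the polyamine enzyme gene that KLF4 represses, fell by 2.55 on the log2 scale (limma, adjusted p = 6.5e-07), from 442 ± 52.6 to 75.6 ± 13.2 FPKM (SD, n = 3). CYP1A1, a drug-metabolism gene with a box bound by KLF9, rose by 1.51 (limma, adjusted p = 0.0084), but from 0.462 ± 0.336 to 2.56 ± 1.99 FPKM (SD, n = 3). The part of any KLF in these values was not tested.

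Early response genes of TGF-beta, the signal for which KLF10 and KLF11 were named, were also measured. Of 9 tested, 5 were called higher at 24 h and none lower (median log2 fold change 1.10 against -0.05 for all genes, of which 8.76% were called higher and 9.51% lower), and the count was 5 after median-of-ratios scaling, 0 with TPM, and 2 with TPM restricted to models of at least 300 bases. None passed an adjusted p of 0.05 in limma at 1 or 2 h. At an unadjusted p under 0.05 there were 3 and 5, against 769 and 2547 of 16680 genes. At 24 h ID1 rose by 1.70 (limma, adjusted p = 0.0028), JUNB by 1.55 (limma, adjusted p = 0.0059) and SMAD6 by 1.43 (limma, adjusted p = 0.0038). JUNB had 19.0 ± 1.62 FPKM at 0 h, 60.2 ± 34.1 after 1 h, 70.4 ± 49.0 after 2 h and 56.5 ± 3.68 after 24 h (SD, n = 3), so that its early means came with wide spreads, as for KLF10 at 2 h.

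The genes whose course was most like that of KLF4 over the 12 libraries were PGAM1, a glycolytic enzyme gene (Pearson's r of log2 values 0.989), VKORC1, a vitamin K enzyme gene (0.988), and NPNT, an extracellular matrix gene (0.988). PGAM1 had 240 ± 8.30 FPKM at 0 h and 479 ± 41.4 at 24 h, VKORC1 39.8 ± 1.68 and 113 ± 5.10, and NPNT 3.596 ± 0.313 and 10.7 ± 0.559 (SD, n = 3). The 12 libraries fall into 24 h and the rest, so r mainly reflects that step.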

How the data were processed

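RNA from 12 HCT116 libraries (4 time points, 3 biological replicates each) was made into strand-specific poly(A) libraries and sequenced by the authors, with base calling in CASAVA 1.8.2 per the labels. According to the methods of the study, the authors aligned reads to hg19 (GRCh37), assembled transcripts with Cufflinks, merged them with Ensembl models and deposited FPKM per transcript. The deposited table holds FPKM and no read counts, so no depth per library was computed from it and no counting intervals are printed. The Cufflinks table of class codes, names and loci was joined by transcript.

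FPKM of class = and j transcripts was summed per gene name, and gene names above 0.5 FPKM in at least 3 libraries (16680) were fitted on log2(FPKM + 0.5) with limma 3.58.1 (lmFit, eBayes with trend, R 4.3.3) over all 12 libraries; fold changes of low genes are understated on this scale. Usage was log2((transcript + 0.5)/(gene + 0.5)) over 57084 transcripts in the same way, and shares were compared by exact permutation (scipy 1.17.1). Gene calls needed an adjusted p under 0.01 and an absolute log2 fold change above 1, the thresholds of the study, and usage calls an adjusted p under 0.05. Checked on simulated data for 24 h against 0 h, 95.0% of 200 genes with a log2 change of 2 were called and 0 of the unchanged genes among 16680; for usage, 60.5% of 200 and 7 unchanged among 57084. The changed features were not drawn from the lowest levels. Smaller changes, which most KLF genes had, and changes at 1 or 2 h were not simulated.

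Groups came from the labels. Replicate numbers were checked for pairing by the correlation of deviations from group means: all 3 same-numbered pairs exceeded 0.1 between 0 h and 2 h (0.129 to 0.362), so the blocked fit is given beside the 2 h results it changes, but not between 0 h and 1 h, 0 h and 24 h or 2 h and 24 h. The labels and methods state no pairing, and the limit of 0.1 is a choice. The mean correlation with 0 h was 0.2447 for 1 h and 0.2455 for 2 h. The block was fitted over all 12 libraries. Alternatives were other pseudocounts, no filter, class = only, summing only transcripts past the filter, median-of-ratios and TPM scaling, TPM over models of at least 300 bases, the 6 libraries of a contrast, a replicate block, each library left out, and adjusted p alone. All 10 KLF genes are named in each comparison; of other lists up to 4 called genes with the largest change at 24 h, or with none called the 2 most abundant; transcripts carrying at least 10% of a gene; and the 3 genes most correlated with KLF4. The values of 1 gene that this rule names are not reported here. The members and lists were chosen with earlier results of these data known, so no list is independent evidence. Promoter windows are from RefSeq (GRCh38.p14), transcript coordinates from GRCh37; the builds were not mixed. Other gene models overlap the loci of KLF3, KLF5, KLF7, KLF11, KLF13 and KLF16, and how the assembly divided reads between them was not tested.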

Additional observations from a re-analysis of the deposited data

Results flagged for a closer look

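For 8 of the 10 KLF genes the change at 24 h against 0 h differed from the change at 2 h against 0 h, by the limma contrast of 24 h with 2 h at an adjusted p under 0.05, in which the shared 0 h libraries drop out. The log2 difference was 2.28 for KLF4, 1.05 for KLF7, 0.79 for KLF9, 0.63 for KLF6, 0.53 for KLF13 and 0.47 for KLF3, so these were higher after the longer time. It was -0.80 for KLF10 and -0.40 for KLF16. The value for KLF4 was called under all 16 alternatives, and its adjusted p ranged from 8.7e-07 to 0.00015. Under TPM KLF4 and KLF7 alone passed, and KLF3, KLF6, KLF9, KLF10, KLF13 and KLF16 did not (adjusted p = 0.39, 0.26, 0.091, 0.50, 0.34 and 0.87 in limma). Those of KLF9 and KLF10 missed an adjusted p of 0.05 in 8 and 5 of the 16, for KLF9 without the first or second 2 h library or the second or the third 24 h library (0.071 to 0.13), and for KLF10 without the first or second 24 h library (0.061 and 0.051). That of KLF16 missed it in 3, also without the first 2 h library (0.074) and without the third 24 h library (0.053). Without the third 2 h library KLF10 was -0.40 and KLF9 was 1.10, then called, and without the second KLF10 was -1.03, then called. In the whole table, 23.2% of genes were higher and 27.4% lower at this threshold. Groups of 3 libraries were too small for a check of single libraries against their group.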

How the results depend on the processing

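No KLF was called at 1 or 2 h under any alternative that kept the fold limit, leaving out each library included (0 in each); with an adjusted p under 0.05 alone, 2 were called at 2 h. At 24 h against 0 h the count of 5 became 2 (KLF4 and KLF9) with TPM, 4 (without KLF6) with TPM over models of at least 300 bases and 8 with adjusted p alone, and it was 4 to 5 when each library was left out. At 24 h against 2 h the count of 2 became 1 (KLF4) with a pseudocount of 1, with class = only, with TPM and with TPM over models of at least 300 bases, became 8 with adjusted p alone, and was 1 to 3 when each library was left out. The cause of the change under TPM was not tested beyond the shift of all genes given above; no called value changed sign. Transcripts with changed usage went from 0 to 4 with a pseudocount of 1 and to 1 with class = only, and were 0 to 1 when each library was left out, the 1 being the retained-intron transcript of KLF4 without the third 24 h library. Transcript shares without overlap went from 4 to 2 when only transcripts past the filter entered the sum, and to 4 to 9 when each library was left out (9 without the second 0 h library, 8 without the first 24 h library), where fewer libraries overlap less often by construction. Over single genes, 607 of 640 values kept direction and call, 20 moved, 11 lost and 2 gained the call; no value at 1 or 2 h had a call to lose. At an adjusted p under 0.05, 44 values lost and 11 gained that side of the threshold, 14 and 1 of them with TPM; at 2 h 19 were lost and 4 gained.

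With the replicate number as a replicate block, the gene counts stayed at 0, 0, 5 and 2 and the usage count was 1 (the same KLF4 transcript). At an adjusted p under 0.05 KLF9 (0.011) and KLF11 (0.048) were added at 2 h. There the same-numbered libraries correlated with 0 h (0.129 to 0.362), but the labels state no pairing of them. At 24 h, where they share only a number (correlations of -0.0008 to 0.242 with 0 h), KLF10 (0.02) and KLF16 (0.017) were added, all in limma. The block changed no other call.

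FPKM carry no read counts, so the precision of KLF7, KLF9 and KLF11, the lowest genes, cannot be given beyond the spread of 3 libraries.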

Other observations

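The third 2 h library, in which KLF10 was highest, was compared with the mean of the other two for each KLF gene, as a description chosen after the values were seen. The ratio was 2.26 for KLF10, 2.03 for KLF9, 1.37 for KLF4 and 1.37 for KLF7. It was 1.08 for KLF3, 1.09 for KLF11, 0.960 for KLF5, 0.922 for KLF16, 0.893 for KLF13 and 0.870 for KLF6. Over 14122 genes the median ratio was 0.970, and 1.44% of them were above KLF9. The higher ratios were thus found in some members and not in others of the same library.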
